A study of Mus musculus with 9 samples.

Results

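Round spermatids (RS) that had been incubated for 24 h with octyl-L-2HG (0.3 mM) added to oxamate (24 mM) were compared with RS incubated with vehicle. Oxamate is an inhibitor of lactate dehydrogenase, and octyl-L-2HG is a cell-permeable ester of L-2-hydroxyglutarate (L-2HG), so the comparison asks how far the transcripts of cells given both compounds lie from those of untreated cells. The comparison rests on 6 of the 9 RS libraries of the series, 3 with both compounds and 3 with vehicle. The 3 remaining libraries, from RS incubated with 24 mM oxamate alone, entered the fit only for the estimate of the spread, and their values are given beside the others where they help. All 9 cultures held 0.15% DMSO. The comparison covers 25128 of the 55414 genes listed, those whose counts in all 9 libraries together reached 10. The cells had been sorted from testes of adult mice on a C57Bl/6 background that carried Stra8-iCre and a tdTomato reporter, in which the Stra8 promoter drives the recombinase in germ cells, and the labels give the genotype of every sample as WT. The study describes the incubations as run in triplicate, and the sources used here do not say whether the libraries of a group came from separate animals or cell sorts, so p-values measure only the spread between these libraries, which may be technical.

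RS are the haploid cells that follow meiosis. Over the following days of development they form an acrosome and a tail and replace most of their histones, first with transition proteins and then with protamines, while transcription winds down and many messages are stored for later translation. LDHC is the lactate dehydrogenase of germ cells, and L-2HG can be made by lactate and malate dehydrogenases as a side product. L-2HG can compete with alpha-ketoglutarate in dioxygenases such as the JmjC histone demethylases, the TET enzymes and the prolyl hydroxylases.

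The libraries held between 32339533 and 39888396 counted reads, so counting error was small for all but weakly expressed genes. The first principal component of the 6 libraries, with 73.6% of the variance, separated the groups, and the second, with 11.2%, set vehicle library 1 apart from the other 5. Of the 15 round spermatid markers, all were measured, and their summed level was 3300 to 3400 CPM (counts scaled to the library total) with vehicle, 3140 to 3230 with oxamate alone and 2870 to 2920 with both compounds. The 14 markers of meiotic spermatocytes summed to 1760 to 1940 CPM with vehicle and 1660 to 1810 with both compounds. Somatic signal was low: the 14 Sertoli markers summed to 6.03 to 7.22 CPM with vehicle and 6.71 to 7.38 with both compounds, with Fshr at 0, and the 8 Leydig markers to 0.928 to 1.13 and 0.945 to 1.19. The summed markers of 3 other somatic types were lower with both compounds, at 3.18 to 3.39 against 4.15 to 4.83 for 9 peritubular myoid markers, 3.93 to 4.77 against 5.59 to 6.55 for 10 macrophage markers with Lyz2 at 0, and 12.8 to 13.9 against 16.2 to 17.4 for 7 endothelial markers. Of these markers 8 of 9, 8 of 10 and 5 of 7 were below 1 CPM, so the sums rest largely on few genes. In each list 1 tested marker was called lower, and 1 endothelial marker was called higher. The 5 markers of red blood cells summed to at most 0.0513 with vehicle and were at 0 with both compounds, and the 11 spermatogonial markers summed to 14.8 to 15.7 with vehicle and 13.8 to 15.7 with both compounds. In RNA from bulk cultures, fewer cells of a kind and less RNA per cell cannot be told apart.

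With both compounds 1879 genes rose and 2655 fell against vehicle, called where the p-value of edgeR's quasi-likelihood test was under 0.05 after Benjamini-Hochberg adjustment over every gene tested. These 4534 genes are 18.0% of the genes tested, 7.48% higher and 10.6% lower. The split turned with the level of the gene. Among the 4950 genes whose normalized counts averaged 1000 or more over the 6 libraries, 1006 rose and 455 fell, and the median log2 fold change was 0.07. Among the 5737 genes between 100 and 1000, 700 rose and 986 fell, and among the 6633 genes between 10 and 100, 145 rose and 946 fell, with a median log2 fold change of -0.13. Among the 7808 genes below 10, 28 rose and 268 fell. The surplus of falls among weakly expressed genes was also seen with DESeq2, where 85 of the genes between 10 and 100 rose and 620 fell. The surplus of rises at the highest level depended on the scaling. With the library totals as the only scaling 626 of the genes averaging 1000 or more rose and 709 fell.

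Changes were small. Of the 10687 genes with a mean of at least 100, 29.4% were called, 16.0% higher and 13.5% lower. The median size of a called change among them was 0.34 on the log2 scale for the rises, a 1.27-fold change, and 0.46 for the falls, a 1.38-fold change. A log2 fold change of at least 1 was reached by 20 of the 1706 rises and by 59 of the 1441 falls. In 36.5% of all genes tested the 3 libraries with both compounds lay entirely above or entirely below the 3 vehicle libraries, and in 98.6% of the called genes. The number of rises and falls moved with the scaling. With the library totals as the only scaling 1231 genes rose and 3367 fell, and 26.8% of the calls were rises, against 41.4% with TMM scaling, 52.6% without a filter on low counts and 55.8% after removal of trends on transcript length and GC content. Without library 7 of the group with both compounds 2961 genes were called in all, 1162 of them higher, and without library 8 there were 1208 rises.

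**Figure D1:**
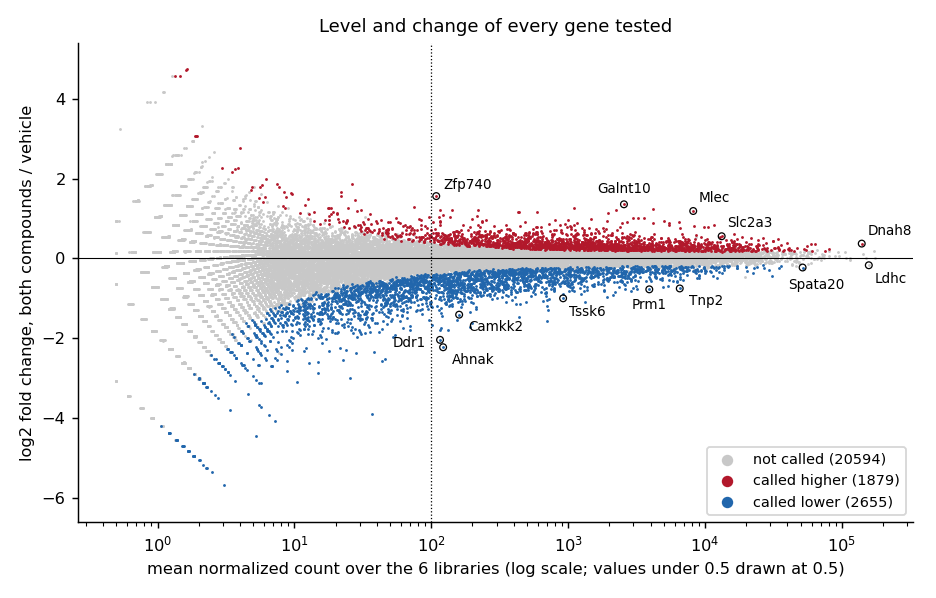
Mean normalized count of each gene over the 6 libraries (x axis, log scale) against its log2 fold change with both compounds over vehicle (y axis), with the 1879 genes called higher in red, the 2655 called lower in blue and the rest in grey. The dotted line marks a mean of 100, to the left of which blue points outnumber red ones, and circles mark genes named in the text.

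Transcript length moved with the change. Genes with a mean of at least 100 were sorted by the length of their transcripts into 5 bins. In the shortest, from 78 to 1456 nucleotides, 61 of 2137 genes rose and 574 fell, with a median log2 fold change of -0.12. In the longest, from 5057 to 123179 nucleotides, 615 of 2134 rose and 178 fell, with a median of 0.13. The median also climbed with length for oxamate alone against vehicle, from -0.07 to 0.08, although that comparison shares the vehicle libraries. When smooth trends on length and GC content were removed from each library, the medians of the 5 bins lay between 0.06 and 0.09, 3084 genes rose and 2440 fell, and 3928 of the called genes were shared with the fit without that correction. Counts after that correction are given beside several of the gene groups, some with their median transcript length, and the part of length in each result was not tested.

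**Figure D2:**
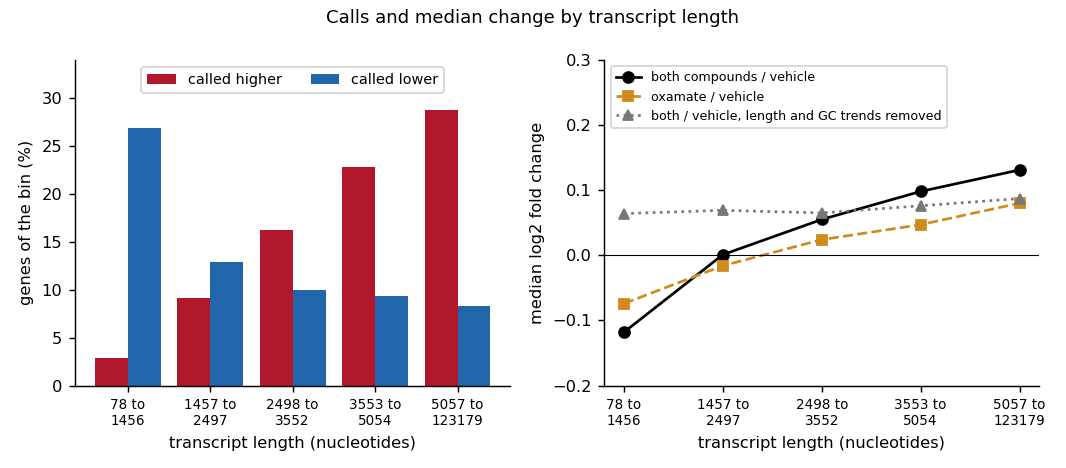
Left, percentage of genes called higher (red) and lower (blue) in 5 bins of transcript length, among genes averaging 100 or more normalized counts. Right, median log2 fold change in the same bins for both compounds over vehicle (black), oxamate over vehicle (orange) and both compounds over vehicle after removal of length and GC trends (grey). The black line climbs from -0.12 to 0.13 and the grey line stays between 0.06 and 0.09.

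Of the 10 largest rises among genes with a mean of at least 100 and no overlap between the groups, Atp13a2 and Mfsd12 encode proteins of the lysosome, and Mlec and Galnt10 act on the sugars of proteins in the secretory pathway. Zfp740 (ENSMUSG00000046897), a zinc finger gene, had normalized counts of 42.6, 42.6 and 77.8 with vehicle, 125, 154 and 139 with oxamate and 177, 154 and 157 with both compounds. It rose 2.95-fold, with a log2 fold change of 1.56 (SE 0.17) and an adjusted p-value of 1.9e-06. Galnt10 (ENSMUSG00000020520), which starts O-linked glycosylation by adding N-acetylgalactosamine, had 1492, 1281 and 1494 with vehicle, 3138, 2312 and 2319 with oxamate and 3764, 3578 and 3732 with both compounds. In Galnt10 the libraries of both compounds were thus above those of oxamate alone, which were above vehicle. Its log2 fold change against vehicle was 1.35 (SE 0.10, adjusted p-value 1.4e-08). Mlec, the endoplasmic reticulum lectin malectin, had the highest counts of the 10, with 5085, 4593 and 5184 with vehicle and 11484, 11352 and 11502 with both compounds, a rise of 1.19 (SE 0.08) on the log2 scale.

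Tnpo2, a nuclear import receptor, stood out from the other rises by its values with oxamate alone, of 553, 404 and 373, which reached down to the vehicle values of 368, 346 and 374. With both compounds it had 772, 844 and 873, and its log2 fold change against vehicle was 1.17 (SE 0.11, adjusted p-value 3.9e-07). Pitpnm2, a phosphatidylinositol transfer protein, was by contrast already at 5452, 4882 and 4748 with oxamate alone, against 2406, 2297 and 2631 with vehicle and 6128, 5779 and 5727 with both compounds. The log2 fold changes were 1.27 for Rnf166, a RING-type ubiquitin ligase, 1.22 for the adhesion receptor Adgrg1, 1.21 for Atp13a2 and 1.21 for the transporter Mfsd12.

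The largest falls were led by Ahnak and Ddr1. Ahnak (ENSMUSG00000069833), which encodes a very large scaffold protein, had normalized counts of 179, 207 and 216 with vehicle, 128, 192 and 186 with oxamate and 47.2, 38.0 and 44.9 with both compounds. It fell 4.67-fold, with a log2 fold change of -2.22 (SE 0.17, adjusted p-value 1.8e-08). Ddr1, a receptor tyrosine kinase for collagen, had 171, 189 and 199 with vehicle, 84.8, 97.2 and 94.3 with oxamate and 42.7, 41.5 and 52.4 with both compounds. Each group of Ddr1 lay apart from the other 2, in the order vehicle, oxamate, both compounds, and its log2 fold change against vehicle was -2.04 (SE 0.14, adjusted p-value 6.1e-09). Prdm16, a transcription regulator with a PR domain, had 209.7, 205 and 266 with vehicle, 163, 252 and 248 with oxamate and 85.3, 76.1 and 76.8 with both compounds, so that the oxamate libraries overlapped with vehicle and those with both compounds did not. Its log2 fold change was -1.54 (SE 0.16). The other falls were -1.80 for Cobll1, -1.79 for Nrros, which anchors latent TGF-beta, -1.73 for the transcription factor gene Tfcp2l1, and -1.73, -1.67, -1.61 and -1.56 for Gm49193, Gm35025, 1810024B03Rik and A930030B08Rik, which have no assigned name. Summed markers of some somatic types were also lower with both compounds than with vehicle, at 3.93 to 4.77 against 5.59 to 6.55 CPM for macrophages, 12.8 to 13.9 against 16.2 to 17.4 for endothelial cells and 3.18 to 3.39 against 4.15 to 4.83 for peritubular myoid cells. These sums rest largely on few genes, with 1 tested marker called lower in each list and 1 endothelial marker called higher. The part of somatic cells in these falls was not tested. The calls of these rises and falls held without any 1 of the 9 libraries and in the 8 other fits across all genes.

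**Figure D3:**
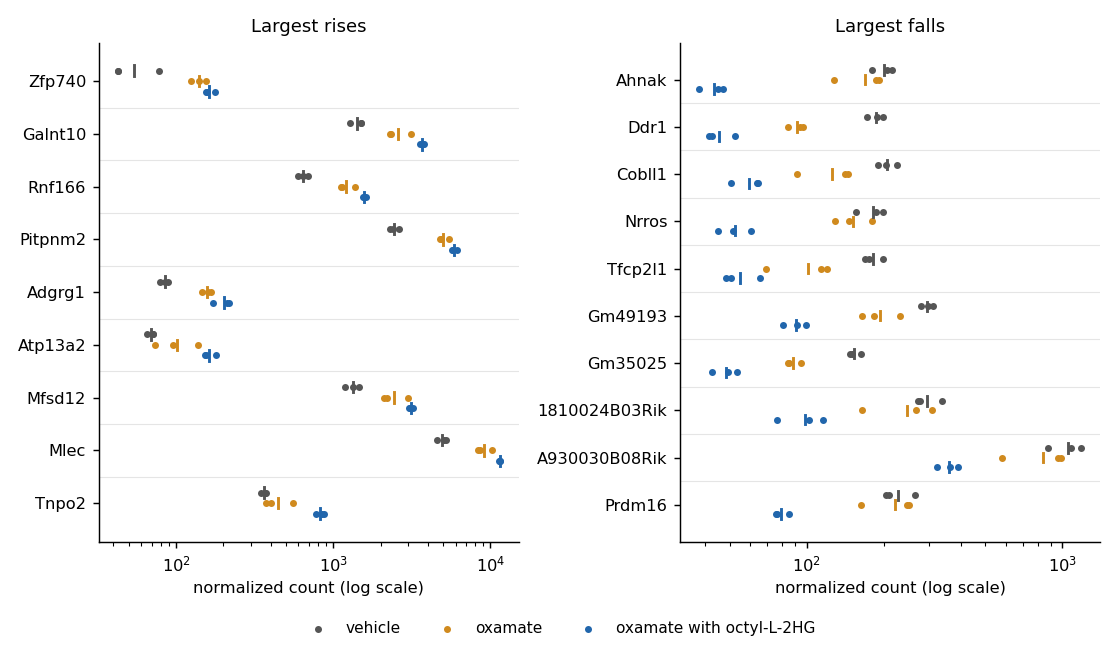
Normalized counts (x axis, log scale) of 9 of the 10 largest rises and of the 10 largest falls in each library, with vehicle in grey, oxamate in orange and both compounds in blue; short vertical lines are group means (n = 3). In every gene shown the blue and grey points do not overlap, and the orange points lie between them or overlap with one side.

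Of 25 genes that package the chromatin of the sperm head, a list of protamines, transition proteins, testis histones and factors of histone removal, 12 (48.0%) fell, 12 were not called and 1 (4.0%) rose, with a median log2 fold change of -0.35 beside -0.05 over all genes tested. Of the 19 members with a mean of at least 100, 11 fell. Among all genes of that level 13.5% fell and 16.0% rose, and among those from 78 to 1456 nucleotides 26.9% fell, with a median of -0.12. All 5 protamine and transition protein genes fell, with a median of -0.68. Of the 12 testis histones 5 fell, and of the 8 factors of histone removal Tssk6 and the kinase gene Camk4 (-0.35, named after its values were seen) fell and Mdc1 rose. The median transcript of the list was 864 nucleotides long, and after removal of the length and GC trends 11 members fell and 2 rose, and without oxamate library 4 or 6 there were also 2 rises. The 5 protamine and transition protein genes fell in that fit too, with total-count scaling, with DESeq2 and without each library in turn.

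Prm1 (ENSMUSG00000022501), which encodes protamine 1, had normalized counts of 5203, 4960.4 and 4583 with vehicle, 3551, 3647 and 3575 with oxamate and 2976, 2868 and 2913 with both compounds. The 3 groups did not overlap, and the treated level relative to vehicle was -0.77 on the log2 scale (SE 0.07, adjusted p-value 1.1e-07). Tnp2, which encodes transition protein 2, had 8765, 8025 and 7672 with vehicle, 6291, 6662 and 6581 with oxamate and 5234, 4942 and 4580.5 with both compounds, for a log2 fold change of -0.75 (SE 0.07). Prm2 fell by 0.68 and Tnp1 by 0.56 on the log2 scale, again with the oxamate libraries between the other groups. After removal of the length and GC trends the log2 fold changes were -0.51 for Prm1, -0.54 for Tnp2, -0.49 for Prm2 and -0.24 for Tnp1.

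Tssk6, a spermatid kinase that the replacement of histones depends on, differed from the protamines in that its oxamate libraries, at 1249, 1096 and 972, overlapped with vehicle at 1438, 1134 and 1082. With both compounds it had 586, 637 and 634, which is a change on the log2 scale of -0.998 (SE 0.11, adjusted p-value 1.1e-06). H2al2a, a short histone H2A variant of spermatids, had 538, 569.6 and 528 with vehicle and 289.7, 299.7 and 332 with both compounds, for a log2 fold change of -0.85 (SE 0.10). Mdc1, a mediator of DNA damage signalling that binds phosphorylated H2AX, had 7020.0, 7139 and 7707 with vehicle and rose by 0.34 (SE 0.07).

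The promoters of the protamine and transition protein genes are shown because these genes moved together. Each sequence is the 250 bases before the RefSeq start site in build GRCm38.p6, 5′ to 3′ on the strand of the gene, with capitals on matches to TGANNTCA and TATAA on either strand. TGANNTCA is the cAMP response element TGACGTCA, the site of CREB and CREM, with its 2 central bases left free, and CREM is a known activator of genes of RS. It was chosen after these promoters had been read.
Prm1, chr16:10796824-10797073, minus strand: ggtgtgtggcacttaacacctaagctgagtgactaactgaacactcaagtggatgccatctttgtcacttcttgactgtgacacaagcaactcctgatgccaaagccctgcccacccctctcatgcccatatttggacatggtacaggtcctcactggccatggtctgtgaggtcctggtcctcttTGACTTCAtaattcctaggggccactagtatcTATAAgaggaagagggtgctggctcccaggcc
Prm2, chr16:10792106-10792355, minus strand: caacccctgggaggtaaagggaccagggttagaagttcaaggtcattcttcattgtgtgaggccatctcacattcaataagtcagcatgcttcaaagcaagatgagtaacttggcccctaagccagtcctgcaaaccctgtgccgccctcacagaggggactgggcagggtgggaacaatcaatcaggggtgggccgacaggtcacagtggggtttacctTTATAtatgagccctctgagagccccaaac
Tnp1, chr1:73015900-73016149, minus strand: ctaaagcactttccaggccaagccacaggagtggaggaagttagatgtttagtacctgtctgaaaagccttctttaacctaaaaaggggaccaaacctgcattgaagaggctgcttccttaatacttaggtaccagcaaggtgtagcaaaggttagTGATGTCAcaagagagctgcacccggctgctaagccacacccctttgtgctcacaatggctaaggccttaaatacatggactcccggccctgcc
Tnp2, chr16:10788656-10788905, minus strand: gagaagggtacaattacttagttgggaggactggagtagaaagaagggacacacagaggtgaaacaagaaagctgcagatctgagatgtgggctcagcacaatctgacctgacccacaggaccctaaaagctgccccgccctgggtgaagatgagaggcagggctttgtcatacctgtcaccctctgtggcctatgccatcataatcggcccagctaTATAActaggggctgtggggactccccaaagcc

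TGANNTCA lay at positions -64 to -57 from the start site in Prm1 and -94 to -87 in Tnp1. TATAA lay at -32 to -28 in Prm1 and -33 to -29 in Tnp2, and on the other strand at -30 to -26 in Prm2. The complete element TGACGTCA was in none of the 5 promoters of these genes, Prm3 included, and in 1.55% of the 32851 promoters of this length in the RefSeq table, while TGANNTCA was in 3 of the 5 and in 11.9% of all. The same letters in another order, ACTNNAGT, were in 2 of the 5 and in 5.03% of all, so nothing is read from the matches in these 5 promoters.

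Over all genes with a mean of at least 100, the shares differed by direction. A TGANNTCA match stood in 299 of 1345 promoters of genes that fell (22.2%), in 142 of 1788 promoters of genes that rose (7.94%) and in 1236 of 10435 promoters of all such genes (11.8%), where 8195 genes could be matched to a promoter by symbol. Promoters of the genes that fell also held more A and T, with a median GC content of 53.6% against 62.4% for the rises. Among promoters with less than 50% GC the shares were 36.3% for falls, 13.8% for rises and 22.0% for all, and among those with 50% or more they were 14.9%, 7.04% and 8.98%. For the reordered letters ACTNNAGT the shares were 7.21% for falls, 4.25% for rises and 4.57% for all, and for TATAA, which was in 22.8% of all promoters in the RefSeq table, they were 19.0%, 9.73% and 13.8%. The complete element TGACGTCA stood in 27 of the 1345 promoters of falls, 48 of the 1788 of rises and 289 of the 10435 of all. Its share was thus not higher among falls than among rises, unlike that of TGANNTCA. A part of CREB or CREM in the falls was not tested. Among genes whose transcripts were shorter than the median the TGANNTCA shares were 28.0% for falls and 5.94% for rises, and among longer ones 13.3% and 8.54%. With the calls made after removal of the length and GC trends they were 19.3% and 9.38%. These splits by GC content, length and fit were chosen after seeing the data. A match is a stretch of letters and not a bound site, and named genes of both directions hold one in at least 1 of their promoters. Beside Prm1, Prm3 and Tnp1 these were, of the genes named by the rule given below, Ddr1, H2al2a, Spata20, Hspa1l, Jund, Cenpj, Fhl5, Actl9, Calr3, Ropn1, Tssk2, Syce2 and Clk4 among the falls. Among the rises they were Tnpo2, Mdh2, Nfe2l1, Txnrd1, Smarca2, Tcfl5 and Spaca7, and Ldha, which was not called, held one too.

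Of 14 markers of elongating spermatids 12 (85.7%) fell and none rose, with a median log2 fold change of -0.30. Among all genes with a mean of at least 100, 13.5% fell and 16.0% rose, and among those from 78 to 1456 nucleotides 26.9% fell. The median transcript of these markers was 1281 nucleotides long. The falls include Prm3 and Tnp2, which are also counted among the protamines and transition proteins. After removal of the length and GC trends 10 fell. Their summed level was 8740 to 8810 CPM with vehicle, 8130 to 8440 with oxamate and 7770 to 8060 with both compounds. Spem1, which clears cytoplasm from the maturing sperm head, had 2428, 2330.5 and 2155 with vehicle, 1810.0, 1955 and 1848 with oxamate and 1373, 1335 and 1259 with both compounds. All 3 groups of Spem1 lay apart, and its log2 fold change against vehicle was -0.82 (SE 0.07, adjusted p-value 1.3e-07). Carbonic anhydrase Car2 fell by 1.01 (SE 0.12) and Fam71b by 0.68 (SE 0.09) on the log2 scale. Of the 15 round spermatid markers 8 (53.3%) fell and 3 (20.0%) rose, among the latter the acrosomal genes Acrv1 at 0.25 (SE 0.07) and Spaca7 at 0.32 (SE 0.08), and 4 of the 8 that fell were Prm1, Prm2, Tnp1 and Tnp2. After removal of the length and GC trends 6 of these markers rose and 6 fell, and 1 rose with total-count scaling or without library 7 of both compounds. Acrv1 was not called without vehicle library 1 (0.21) or library 9 of both compounds (0.20), nor was Spaca7 without library 7 (0.29). Leaving out 1 library left 8 to 12 falls among the elongating spermatid markers.

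Acrosome genes moved in both directions. Of 35 tested 7 (20.0%) rose and 7 (20.0%) fell, with a median of 0.01 and a median transcript of 1601 nucleotides. Among all genes with a mean of at least 100, 16.0% rose and 13.5% fell, so the counts are not read as a result about the list. The zona pellucida binding protein gene Zpbp2 had 15864, 15624 and 14679 with vehicle, 16666, 16722 and 16612 with oxamate and 20191, 20005 and 20344 with both compounds. The groups with vehicle and with both compounds were far apart for Zpbp2, and it rose by 0.37 (SE 0.06). Acrbp, which binds proacrosin, rose by 0.33 (SE 0.06), and Prss55, a serine protease, fell by 0.64 (SE 0.07) and Actl9, an actin-like protein, by 0.52 (SE 0.08). After removal of the length and GC trends 14 acrosome genes rose and 6 fell, with total-count scaling 4 rose and 8 fell, and without library 7 of both compounds 4 rose.

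Among 28 genes of sperm surface and fertilization proteins 5 (17.9%) rose and 6 (21.4%) fell, beside 16.0% and 13.5% of all genes with a mean of at least 100. The counts are not read as a result about the list. After removal of the length and GC trends 11 rose and 6 fell. Clgn, a testis chaperone of the endoplasmic reticulum that sperm surface proteins depend on, had 31879, 34383 and 36627 with vehicle, 30747, 35215 and 36949 with oxamate and 47694, 44865 and 43071 with both compounds. Clgn thus lay at the vehicle level with oxamate alone, with a log2 fold change of 0.00, and rose by 0.38 (SE 0.07, adjusted p-value 0.00055) with both compounds. Tmem81, a sperm membrane protein gene, had 879, 888 and 839 with vehicle and 448, 477 and 521 with both compounds, for a log2 fold change of -0.87 (SE 0.09), and Calr3, the testis calreticulin, fell by 0.42 (SE 0.07). The number of rises in this list was unsteady, from 1 without vehicle library 1 or library 8 or 9 of both compounds to 8 without oxamate library 4. Without vehicle library 2, oxamate library 5 or library 7 of both compounds it was 2, and without vehicle library 3 or oxamate library 6 it was 3.

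Among 93 sperm tail genes 12 rose and 12 fell, with a median of 0.08. Among genes with a mean of at least 100, 16.0% rose and 13.5% fell. By role, 3 of 12 fibrous sheath genes and 4 of 13 outer dense fibre genes fell and none of either rose, and of 41 axoneme genes 7 rose and 3 fell, and of 16 intraflagellar transport genes 3 rose and 1 fell. After removal of the length and GC trends the fibrous sheath had 2 rises and 4 falls, the outer dense fibres 2 and 2, the axoneme 14 and 5 and intraflagellar transport 8 and 1, and the roles were not tested against each other. The fibrous sheath falls numbered 7 without oxamate library 4 and 1 without library 8 of both compounds, with 1 rise without vehicle library 3 or oxamate library 4. The outer dense fibre falls numbered 2 without vehicle library 1 or 3 or library 7 or 8 of both compounds, with 1 rise without oxamate library 4. The axoneme rises numbered 17 without oxamate library 4, 3 without vehicle library 1 or library 7 or 8 of both compounds and 2 without vehicle library 2 or library 9, and its falls 1 without vehicle library 3 or library 7 or 8. Intraflagellar transport had 8 rises without oxamate library 4. The median transcripts of these 4 roles were 1934, 1629, 5727 and 3010.5 nucleotides long. Dnah8, the heavy chain of a dynein of the tail, had 116955, 112355 and 132991 with vehicle, 137503, 125271 and 133985 with oxamate and 164652, 155030.0 and 155786 with both compounds. Dnah8 rose by 0.37 (SE 0.07, adjusted p-value 0.00031), and Dnah2 rose by 0.36 (SE 0.07). Tekt5, a tektin of the tail, fell by 0.57 (SE 0.07) and Ropn1, which anchors signalling proteins in the fibrous sheath, by 0.45 (SE 0.06). The count of rises in the tail list was 33 after removal of the length and GC trends, 5 with total-count scaling and 32 without oxamate library 4, and it was 5 or 6 without vehicle library 1 or 2 or any 1 library of both compounds. The count of falls was 7 without vehicle library 3, 7 without library 7 of both compounds and 6 without library 8.

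Of 25 genes of the manchette, the microtubule sleeve that shapes the head, 6 (24.0%) rose and 2 (8.0%) fell, Spem1 among the latter. Among all genes with a mean of at least 100, 16.0% rose and 13.5% fell, and these shares also stand beside the counts that follow. Kif3b, a motor subunit, rose by 0.43 (SE 0.06) and Ccdc38 by 0.35 (SE 0.07). Of the 8 testis-specific serine kinase genes on the list of kinases and stored messages 4 fell and none rose, among them Tssk6 and Tssk2 (-0.23, SE 0.06, not called without library 8 of both compounds). The kinase falls numbered 2 without vehicle library 1 or 3 or library 9 of both compounds and 1 without library 8, and 1 kinase gene rose without vehicle library 2 or oxamate library 4. Of the 25 genes of mRNA storage and translation on that list 5 (20.0%) rose and 1 (4.0%) fell: Celf1, an RNA-binding protein, rose by 0.63 (SE 0.10), Larp1 by 0.36 (SE 0.06) and Tdrd6 of the germ granules by 0.24 (SE 0.06, not called without vehicle library 2), while Samd4 fell by 0.33 (SE 0.06). The storage rises numbered 11 without oxamate library 4 and 3 without vehicle library 1 or library 7 or 8 of both compounds. The 2 falls in the manchette list were 1 without any 1 vehicle library, any 1 library of both compounds or oxamate library 5. Its rises numbered 11 without oxamate library 4 or after removal of the length and GC trends, 2 with total-count scaling, and 2 or 3 without vehicle library 2 or 3 or any 1 library of both compounds. For the list of kinases and stored messages, which had 5 rises in all, the rises numbered 12 without oxamate library 4 or after removal of the length and GC trends and 3 without vehicle library 1 or library 7 or 8 of both compounds, and the falls, also 5 in all, numbered 3 without vehicle library 1 or 3 or library 9 of both compounds and 2 without library 8.

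Among 26 transcription regulators of spermatids 3 (11.5%) rose and 2 (7.69%) fell, beside 16.0% and 13.5% of all genes with a mean of at least 100. Mybl1, which drives the pachytene programme and piRNA precursors, had 705, 821 and 798 with vehicle, 866, 988 and 999 with oxamate and 1322, 1288 and 1312 with both compounds. Its 3 groups did not overlap, and it rose by 0.73 (SE 0.08, adjusted p-value 1.5e-06). Tcfl5, a germ cell transcription factor, rose by 0.27 (SE 0.06). Taf7l, a germ cell TFIID subunit, fell by 0.53 (SE 0.08) and Fhl5, a coactivator of CREM, by 0.50 (SE 0.07). Without oxamate library 4 the falls were 5, and with total-count scaling also 5.

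Of 27 genes of the endoplasmic reticulum stress response 12 (44.4%) rose, 15 were not called and none fell, beside 16.0% higher and 13.5% lower among genes with a mean of at least 100. The list had a median log2 fold change of 0.13, a median transcript of 2566 nucleotides and, after removal of the length and GC trends, 13 rises. Sel1l, an adaptor of the ligase that removes misfolded proteins from the endoplasmic reticulum, had 421, 408 and 441 with vehicle, 732, 602 and 653 with oxamate and 745, 682 and 784 with both compounds. Sel1l libraries with either treatment lay above all vehicle libraries and overlapped with each other, and with both compounds the rise against vehicle was 0.78 (SE 0.09, adjusted p-value 3.2e-06). Its partner ligase Syvn1 had 124, 134 and 139 with vehicle and 174, 213 and 170.4 with both compounds, a rise of 0.47 (SE 0.12). The sensor Ern1 rose by 0.46 (SE 0.14) but was lower with both compounds, at 147, 181 and 162, than with oxamate alone, at 215, 227 and 246. Canx, the chaperone calnexin, had 3375, 3577 and 3633 with vehicle and 4498, 4696 and 4493 with both compounds, a rise of 0.35 (SE 0.07). With total-count scaling 8 members rose and 2 fell, and without library 8 or 9 of both compounds 6 and 7 rose. Syvn1 was not called without library 8, and Ern1 was not called without vehicle library 2 or library 8 or 9 of both compounds.

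The promoters of 2 of these genes are shown because the endoplasmic reticulum stress element, which is CCAAT and CCACG with 9 free bases between them, was frequent in the list. It is the site that ATF6 binds together with NF-Y. Sequences are as above, with the element in capitals.
Syvn1, chr19:6046326-6046575, plus strand: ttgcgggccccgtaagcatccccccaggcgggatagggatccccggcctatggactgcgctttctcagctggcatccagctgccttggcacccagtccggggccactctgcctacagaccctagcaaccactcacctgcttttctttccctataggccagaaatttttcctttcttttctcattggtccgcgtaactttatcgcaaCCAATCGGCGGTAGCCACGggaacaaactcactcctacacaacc
Canx, chr11:50325674-50325923, minus strand: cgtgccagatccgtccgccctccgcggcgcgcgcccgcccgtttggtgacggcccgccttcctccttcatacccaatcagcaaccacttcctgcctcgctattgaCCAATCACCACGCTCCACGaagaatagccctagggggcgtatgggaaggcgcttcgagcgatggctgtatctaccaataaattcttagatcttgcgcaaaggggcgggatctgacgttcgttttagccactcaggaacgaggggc

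The element, searched on both strands, was in 37 of all 32851 promoters, 0.113%, and in the promoters of 9 of the 23 stress genes that could be matched. Of the 11 matched stress genes that rose 5 held it, namely Calr, Canx, Hsp90b1, Pdia6 and Syvn1, of which Calr, Hsp90b1 and Pdia6 were named after their values were seen. The other holders in the list, Creld2, Derl3, Dnajc3 and Hspa5, were not called and were also named after their values were seen. The list was made of genes of this stress response, so the frequency of the element in it is no result about the rises. Sel1l held none in this window. Over all genes with a mean of at least 100 the element was in 19 of 10435 promoters, 9 of them of genes that rose and 0 of genes that fell. Beside the 5 stress genes the holders among the rises were Adcy3, Alg12, Ero1b and Pan2, likewise named after their values were seen.

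Of 42 genes of the integrated stress response 7 (16.7%) rose and 2 (4.76%) fell, beside 16.0% and 13.5% of the genes with a mean of at least 100 and 7.48% and 10.6% of all genes tested. The stress-induced Sesn2 rose by 0.57 (SE 0.12), the phosphatase subunit Ppp1r15b by 0.44 (SE 0.09) and the heme-regulated kinase Eif2ak1 by 0.33 (SE 0.07). Asns, the asparagine synthetase gene that is a standard target of ATF4, went the other way, with 2323, 2295 and 2387 with vehicle, 2245, 2232 and 2112 with oxamate and 1571, 1550.4 and 1692 with both compounds. Asns fell by 0.56 (SE 0.07, adjusted p-value 5.9e-06), and its oxamate libraries lay just below the lowest vehicle library.

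In the heat shock, oxidative stress, apoptosis, p53, hypoxia, sterol and immediate early gene lists 4.17 to 20.0% of the genes rose and 4.0 to 20.0% fell, beside 7.48% and 10.6% of all genes tested and 16.0% and 13.5% of those with a mean of at least 100, so the counts are no result about the lists. Of 25 heat shock genes 3 rose and 3 fell. Hsf5, a heat shock factor of germ cells, rose from 12422, 12613 and 13124 with vehicle to 20609, 19585 and 19458 with both compounds, by 0.62 (SE 0.06, adjusted p-value 3.3e-07), and Hspa1l, a chaperone of spermatids, fell by 0.32 (SE 0.06). Of the heat shock genes 7 rose and 3 fell after removal of the length and GC trends. The heat shock list had 1 rise without any 1 vehicle library or library of both compounds and 7 without oxamate library 4, and 1 fall without vehicle library 2 or 3 or any 1 library of both compounds. Of 35 genes of the oxidative stress response 3 rose and 7 fell, with a median of -0.12. Txnrd1, a thioredoxin reductase, and Nfe2l1 rose by 0.38 (SE 0.07) and 0.41 (SE 0.08), and Srxn1, the sulfiredoxin, and Prdx5, a peroxiredoxin, fell by 0.42 (SE 0.08) and 0.42 (SE 0.09). Of 25 apoptosis genes 3 rose and 1 fell. The death-promoting genes went apart: Bak1 rose by 0.51 (SE 0.10), and Bcl2l11, which encodes BIM, had 310.1, 276 and 258 with vehicle, 194, 222 and 203 with oxamate and 128, 165 and 154 with both compounds, and fell by 0.94 (SE 0.11). Of 20 genes of the p53 response 4 rose and 1 fell, with Sesn2 and Zmat3 (0.36, SE 0.08) among the rises. The apoptosis rises were 1 without vehicle library 2 or 3 or library 7 or 8 of both compounds, and the p53 rises were 2 without vehicle library 1 or 2, with 2 falls without the latter. Of 22 hypoxia genes 4 rose and 4 fell, with Hif1an at 0.40 (SE 0.08), Vhl at -0.47 (SE 0.08) and Ero1a at -0.61 (SE 0.14), and 2 fell without library 7 of both compounds. Of 30 genes of sterol synthesis 3 rose and 3 fell, with Mbtps1, the site-1 protease that activates SREBP, at 0.47 (SE 0.09) and Fdps at -0.57 (SE 0.14), and of 24 immediate early genes 1 rose and 4 fell, with Jund at -0.52 (SE 0.10). The immediate early rise was not called without vehicle library 2 or 3 or library 7 or 8 of both compounds.

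The lactate dehydrogenase genes were not called. Ldhc had 178968, 155403 and 161835 with vehicle, 171997, 147430.0 and 141169 with oxamate and 144554, 147978 and 154747 with both compounds. The libraries with both compounds lay just below the lowest vehicle library, and the log2 fold change was -0.17 (SE 0.07, adjusted p-value 0.12). Ldha had 47148, 43536 and 44466 with vehicle and 43428, 43763 and 44004 with both compounds, with a log2 fold change of -0.06 (SE 0.06, adjusted p-value 0.53). Ldhb was near the detection limit, with 5.33, 2.84 and 5.49 with vehicle and 3.37, 1.15 and 3.74 with both compounds.

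Of the 30 genes of lactate and 2HG metabolism 4 (13.3%) rose and 1 (3.33%) fell. Among all genes tested 7.48% rose and 10.6% fell, and among those with a mean of at least 100 16.0% and 13.5%. D2hgdh, the enzyme that oxidizes D-2-hydroxyglutarate to alpha-ketoglutarate, had 87.1, 86.2 and 116 with vehicle and 73.0, 98.0 and 95.5 with both compounds, and was not called. Mdh2, the mitochondrial malate dehydrogenase, rose by 0.25 (SE 0.08, adjusted p-value 0.042), but was not called without vehicle library 2 or 3, oxamate library 5 or any 1 library of both compounds. The 4 rises of the list were 1 without vehicle library 2 or 3 or library 8 of both compounds, 2 without oxamate library 5 or library 7 of both compounds, 0 without library 9 and 1 with total-count scaling, and the falls were 2 without oxamate library 4. Mdh1, the cytosolic malate dehydrogenase, had 40.9, 45.5 and 32.1 with vehicle and 16.8, 38.0 and 33.7 with both compounds, and was not called.

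In glycolysis 1 of 22 genes (4.55%) rose and 3 (13.6%) fell, beside 16.0% and 13.5% of all genes with a mean of at least 100. The glucose transporter gene Slc2a3 had 11124, 10488 and 10247 with vehicle, 25494, 20498 and 19988 with oxamate and 15685, 15659 and 16172 with both compounds. The 3 groups of Slc2a3 lay apart, with both compounds between the others, and its rise against vehicle was 0.56 (SE 0.08, adjusted p-value 3.4e-05). Gpi1, which makes fructose 6-phosphate, fell by 0.44 (SE 0.07), and pyruvate kinase Pkm by 0.35 (SE 0.07). Of 24 genes of pyruvate entry and the TCA cycle 2 (8.33%) rose and 5 (20.8%) fell, beside the same 16.0% and 13.5%. Pdhb, a subunit of pyruvate dehydrogenase, had 3767, 3524 and 3602 with vehicle, 3807, 3909 and 3797 with oxamate and 2582, 2525 and 2541 with both compounds, and fell by 0.53 (SE 0.06). Its testis partner Pdha2 had 6409.6, 6146 and 6243 with vehicle, 6819.9, 6574 and 6575 with oxamate and 4854, 4933 and 4817 with both compounds, and fell by 0.39 (SE 0.06). For both subunits the oxamate libraries lay above the vehicle libraries and those with both compounds below. Fumarase Fh1 fell by 0.49 (SE 0.08). Without vehicle library 1 or library 7 or 8 of both compounds, 3 of this list fell. Its 2 rises were 1 without vehicle library 2 or library 9 of both compounds and 0 without vehicle library 1 or 3, oxamate library 5 or library 7 or 8 of both compounds.

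Of 75 nuclear genes of the respiratory chain and ATP synthase 20 (26.7%) fell and none rose, with a median of -0.16 and a median transcript of 1001 nucleotides. Of 80 genes of the cytosolic ribosome 11 (13.8%) fell and none rose, with a median of -0.14 and a median transcript of 1076.5 nucleotides. That share of ribosome genes was close to the 13.5% of genes with a mean of at least 100 that fell. Among such genes from 78 to 1456 nucleotides long, a range that holds the median length of both lists, 26.9% fell and 2.85% rose. Their median was -0.12. The share of falls was thus near that of such genes in the first list and below it in the second, so the counts are no result about the lists. Removal of the length and GC trends left 6 falls and 8 rises in the first list and 3 falls and 6 rises in the second, so neither direction held under that fit. With total-count scaling 31 and 35 fell. Leaving out 1 library gave 8 to 29 and 2 to 34 falls. The lowest counts came without vehicle library 1 (9 and 2), library 7 of both compounds (8 and 2) and library 8 (9 and 2), the ribosome list had 6 falls without vehicle library 2, and the highest in that list came without oxamate library 4. Cox6a1 of complex IV had 2613, 2334 and 2176 with vehicle and 1738, 1833 and 1861 with both compounds, and fell by 0.41 (SE 0.08), and Rpl4 fell by 0.47 (SE 0.08). Of the 11 mitochondrially encoded transcripts tested 2 fell, mt-Cytb by 0.47 (SE 0.11), but 2 rose and 1 fell after removal of the length and GC trends, and 1 fell without vehicle library 2 or 3 or library 8 or 9 of both compounds. Mitochondrial transcripts were 0.0786 to 0.0962% of the counts over the 9 libraries. Of 43 proteasome genes 2 rose and 4 fell, but 6 rose and 2 fell after removal of the length and GC trends, 4 rose and 7 fell without oxamate library 4, 1 fell without library 8 of both compounds, and 2 fell without vehicle library 1 or 2, oxamate library 5 or library 7 or 9 of both compounds.

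Of 59 genes of histone acetylation 18 rose and 3 fell, of 51 chromatin remodeller genes 18 rose and 5 fell, and of 43 histone methyltransferase genes 12 rose and none fell. Their median log2 fold changes were 0.15, 0.20 and 0.14, and their median transcripts of 4657, 6354 and 4207 nucleotides were long. The shares that rose, 30.5%, 35.3% and 27.9%, are read beside those of all genes of such length with a mean of at least 100, of which 22.8% rose and 9.38% fell between 3553 and 5054 nucleotides and 28.8% rose and 8.34% fell from 5057 nucleotides on. The lists were not tested against genes of the same length. After removal of the length and GC trends the counts were 23 and 5, 19 and 8, and 14 and 1, and with total-count scaling 13 and 3, 13 and 6, and 7 and 0. Without library 7 of both compounds 10 remodellers and 6 methyltransferases were called higher, and without library 9 there were 7 methyltransferases, while remodellers called lower numbered 2 without vehicle library 3 or library 9 of both compounds and 3 without library 8, and 1 methyltransferase was called lower without vehicle library 1 or oxamate library 4.

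Ncoa3, a coactivator with acetyltransferase activity, had 776, 698 and 821 with vehicle, 1159, 1015 and 1030.5 with oxamate and 1352, 1322 and 1374 with both compounds. It rose by 0.80 (SE 0.08, adjusted p-value 5.8e-07), with the 3 groups apart. The acetyltransferase gene Kat6a rose by 0.65 (SE 0.11) and the mitochondrial deacetylase gene Sirt3 by 0.49 (SE 0.10), while Hdac4 and Sirt1 fell by 0.54 (SE 0.09) and 0.41 (SE 0.10). Of the 10 bromodomain readers 6 rose and none fell, with Brwd3 at 0.58 (SE 0.12), but 3 rose with total-count scaling, 3 without vehicle library 1 or library 7 of both compounds and 2 without library 8.

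Among the remodellers Chd4, the ATPase of the NuRD complex, had 8049, 8275 and 8768 with vehicle, 10348, 10344 and 10696 with oxamate and 12153, 11531 and 11318 with both compounds, and rose by 0.46 (SE 0.06, adjusted p-value 1.5e-05). Of the 25 SWI/SNF genes 10 rose and 4 fell, with 6 rises without library 7 of both compounds and 2 falls with DESeq2 or without vehicle library 3 or library 8 or 9 of both compounds. Smarcd1 rose by 0.73 (SE 0.11), Bcl7b by 0.57 (SE 0.08) and the ATPase gene Smarca2 by 0.46 (SE 0.08), while Arid1a, with 2632, 2606 and 2963 with vehicle, 3068, 3553 and 3486 with oxamate and 2224, 1910.1 and 1959 with both compounds, fell by 0.45 (SE 0.08) and its paralog Arid1b by 0.59 (SE 0.14). Arid1a was thus above vehicle with oxamate alone and below it with both compounds. Among the methyltransferases Kmt5a rose by 0.56 (SE 0.11), Setd1b by 0.43 (SE 0.08), Prdm2 by 0.41 (SE 0.06) and Setdb1, which methylates H3K9, by 0.37 (SE 0.07).

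Of the 30 JmjC genes, whose enzymes use alpha-ketoglutarate, 7 (23.3%) rose and 3 (10.0%) fell, with a median of 0.11. Their median transcript was 5210 nucleotides long. Among all genes from 5057 nucleotides on with a mean of at least 100, 28.8% rose and 8.34% fell, so the counts are no result about the list. Kdm2a, an H3K36 demethylase, had 587, 655 and 633 with vehicle, 763, 723 and 788 with oxamate and 961, 975 and 954 with both compounds, and rose by 0.60 (SE 0.08, adjusted p-value 8.6e-06). Kdm4b and Kdm3b, which remove methyl groups from H3K9, fell by 0.86 (SE 0.12) and 0.77 (SE 0.14). Kdm3a, a paralog of Kdm3b, went the other way, as given below. Kdm4b had 203, 210.4 and 235 with vehicle, 181, 219 and 174 with oxamate and 115, 128 and 119.8 with both compounds. Jarid2, a Polycomb cofactor with a JmjC domain but no demethylase activity, fell by 0.57 (SE 0.10).

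Of the 6 JmjC genes that the rule for named genes always covers, Kdm3a and Kdm5c were above vehicle with both compounds. Kdm3a had 6071, 6483 and 6439.9 with vehicle, 7532, 7535 and 7703 with oxamate and 7529, 7695 and 7579.8 with both compounds, so the treated groups overlapped with each other and not with vehicle, and it rose by 0.24 (SE 0.06, adjusted p-value 0.0068). Kdm5c rose by 0.28 (SE 0.08, adjusted p-value 0.016), a call lost without vehicle library 1 or 2 or library 7 or 9 of both compounds. Kdm2b, Kdm4a, Kdm5b and Kdm6b were not called, with log2 fold changes of 0.18 (SE 0.08), -0.07 (SE 0.08), 0.15 (SE 0.06) and 0.15 (SE 0.13), although both Kdm2b and Kdm5b were called without oxamate library 4 and with only the 6 libraries compared. Kdm2b was also called with no filter on low counts, and Kdm5b with filterByExpr, with a minimum of 100 counts in all and with DESeq2. Kdm4a had 655, 666 and 685 with oxamate alone against 488, 514 and 581 with vehicle and 493, 524 and 511 with both compounds, so both compounds and vehicle overlapped. The number of JmjC rises was 4 without vehicle library 2 or library 7 or 9 of both compounds, and that of JmjC falls was 5 without vehicle library 1 or oxamate library 4.

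Of 35 genes of DNA and RNA methylation and demethylation 5 (14.3%) rose and 3 (8.57%) fell, beside 16.0% and 13.5% of all genes with a mean of at least 100. The 12 alpha-ketoglutarate dioxygenases of this list held 2 of the falls and no rise, with Alkbh8, a tRNA-modifying enzyme, at -0.66 (SE 0.15), and Uhrf2, a reader of modified cytosine, rose by 0.36 (SE 0.09). The dioxygenases had 1 fall without vehicle library 1 or library 7 of both compounds and 1 rise without oxamate library 4. The 5 rises were 3 without vehicle library 1 or oxamate library 5, 2 without vehicle library 2 or 3 or any 1 library of both compounds and 8 without oxamate library 4. Of 34 genes of the centromere and heterochromatin 7 (20.6%) rose and 2 (5.88%) fell, beside the same 16.0% and 13.5%. Cenpf, a kinetochore protein, rose by 0.40 (SE 0.10), a call lost without oxamate library 4. Cenpi, another, rose by 0.35 (SE 0.08) and Cenpj, a centriole protein, fell by 0.54 (SE 0.12). The 7 rises were 4 without vehicle library 3, 3 without any 1 library of both compounds and 2 with total-count scaling, and the 2 falls were 1 without vehicle library 1 or 2 or any 1 library of both compounds.

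**Figure D4:**
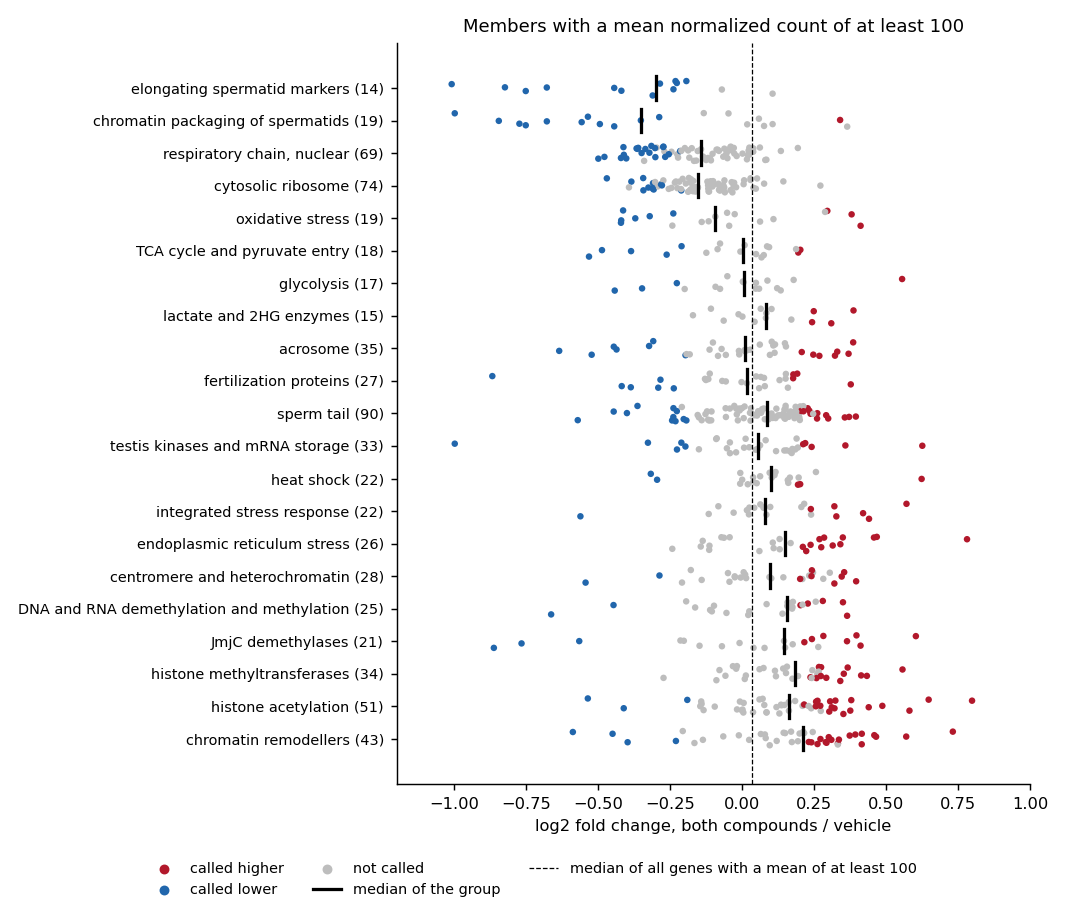
Log2 fold change with both compounds over vehicle (x axis) of the members of 21 gene groups that averaged 100 or more normalized counts (number in brackets), with called genes in red and blue, others in grey and the group median as a black bar. The medians of the elongating spermatid markers and chromatin packaging genes lie furthest to the left of the dashed median of all genes of that level, and those of the histone methyltransferases and remodellers furthest to the right.

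**Figure D5:**
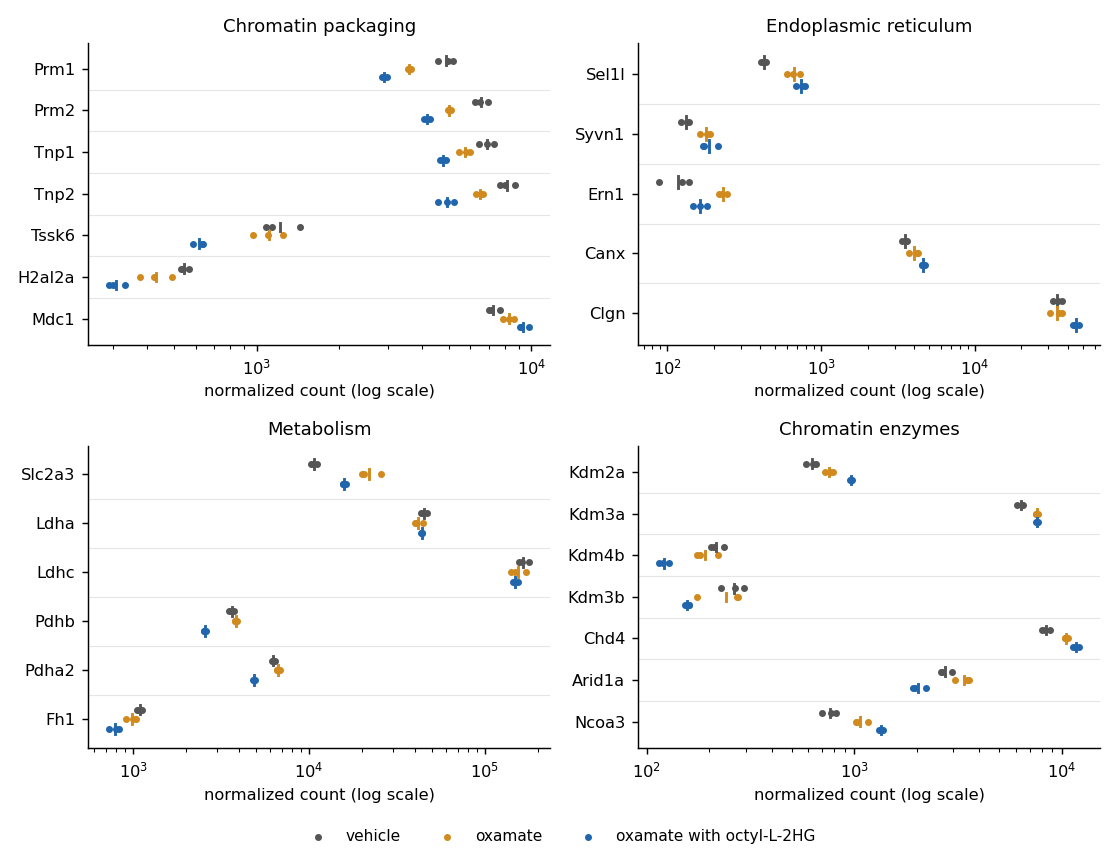
Normalized counts (x axis, log scale) of selected genes of 4 groups in each library, with vehicle in grey, oxamate in orange and both compounds in blue, and group means as short vertical lines (n = 3). Prm1, Prm2, Tnp1 and Tnp2 step down from vehicle over oxamate to both compounds, Slc2a3 is highest with oxamate alone, and Pdhb, Pdha2 and Arid1a are highest with oxamate alone and lowest with both compounds.

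Of 42 meiosis genes 3 (7.14%) rose and 3 (7.14%) fell, with Meioc at 0.55 (SE 0.10) and Syce2, a synaptonemal complex protein, at -0.47 (SE 0.06). Of 23 piRNA pathway genes 4 (17.4%) rose and 1 (4.35%) fell, Mybl1 and Tdrd6 among the rises, the latter not called without vehicle library 2. Among all genes with a mean of at least 100, 16.0% rose and 13.5% fell. The meiosis rises were 7 without oxamate library 4 and 1 without library 8 of both compounds, and the falls were 6 without oxamate library 4 and 1 without vehicle library 2 or library 7 of both compounds. The piRNA rises were 1 without vehicle library 2 and 2 without vehicle library 3 or any 1 library of both compounds, and the falls were 0 without vehicle library 1 or library 7 of both compounds and 2 without oxamate library 4 or library 9 of both compounds. Of 23 splicing genes 7 rose and 3 fell. Srrm2, a scaffold protein of nuclear speckles, had 4449, 4644 and 5415 with vehicle, 7387, 6918 and 7324 with oxamate and 8317, 8413 and 8317 with both compounds, with no overlap among the 3 groups, and rose by 0.77 (SE 0.07, adjusted p-value 2.2e-07). Clk4, a kinase of splicing factors, and Srsf5 fell by 0.47 (SE 0.09) and 0.43 (SE 0.08).

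Of 54 genes of energy sensing and autophagy 9 (16.7%) rose and 6 (11.1%) fell. These shares are near the 16.0% and 13.5% of all genes with a mean of at least 100, so the counts are no result about the list. Camkk2, a kinase that can activate AMPK, had 199.9, 243 and 251 with vehicle, 231, 333 and 319 with oxamate and 91.0, 92.2 and 82.4 with both compounds. It fell by 1.41 (SE 0.14, adjusted p-value 8.1e-07), with oxamate libraries that overlapped with vehicle. Rptor, the scaffold of mTORC1, fell by 0.49 (SE 0.09), and Sesn3, a sestrin that restrains mTORC1, rose by 0.31 (SE 0.07). The 9 rises were 5 without vehicle library 2 or any 1 library of both compounds and 4 with total-count scaling.

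The called genes with the most reads changed little. Of the 10 with the highest counts 9 rose and Spata20 fell, with log2 fold changes from 0.18 for Cfap206 to 0.37 for Dnah8 and Dync1h1 among the rises named and -0.23 (SE 0.06) for Spata20. Tdrd6, Atxn2l, Nasp, Agbl5 and Ccdc136 had log2 fold changes of 0.24, 0.31, 0.24, 0.21 and 0.20. The calls of the smaller of these changes rested on single libraries. Without library 7 or 8 of both compounds Cfap206, Agbl5, Nasp, Ccdc136 and Spata20 were not called, and neither were Cfap206, Ccdc136, Nasp and Spata20 without vehicle library 1, Cfap206, Ccdc136, Agbl5 and Tdrd6 without vehicle library 2, Cfap206, Nasp and Spata20 without vehicle library 3 or Cfap206 without library 9 of both compounds.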

How the data were processed

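RS were sorted by flow cytometry from testes of Stra8-iCre x tdTomato mice and cultured for 24 h, and polyA RNA libraries were sequenced. Per the labels and methods, the authors trimmed reads with cutadapt 2.10, aligned them with TopHat2 2.1.1 to a mouse genome, and made whole-number counts per Ensembl gene with HTSeq 2.01; the strand setting of the counting is not given in the sources used here. The deposited table also holds a normalized signal, which the authors obtained by dividing the counts by DESeq2 1.36.0 size factors, and it is printed here as normalized counts. The genome build differs between the sources: the submitters' processing notes list GRCm39 and also WBcel235, and the methods print GRCh39; GRCm39, the mouse build among them, was taken as the authors' build. Columns of values without a sample numbered 0.

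Genes with at least 10 counts over the 9 libraries (25128) were tested with the quasi-likelihood test of edgeR 4.0.16 in R 4.3.3 (TMM scaling, 1 fit over 9 libraries and 3 groups, two-sided, Benjamini-Hochberg adjustment, threshold 0.05). SE is the standard error of the log2 fold change. Transcript length and GC content came from a GRCm38 annotation, matched for 99.6% of genes, and promoters from a RefSeq table of GRCm38.p6, whose coordinates are not those of the authors' build. Alternatives included DESeq2 1.42.0, other scalings and filters, removal of length and GC trends, and omission of each library. Scripts were tested on simulated data.

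The comparison, the gene lists and the tests were chosen with earlier results of these data known. Genes were named by rule: the 10 largest rises and falls among called genes with a mean of at least 100 and no overlap, the 10 called genes with the highest counts, up to 4 called members of each list in each direction (or the 2 highest where none was called), and lactate dehydrogenase, malate dehydrogenase, D2hgdh and 6 JmjC genes always. Some genes that meet the rule are not reported here.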

Additional observations from a re-analysis of the deposited data

How the results depend on the processing

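Of 4534 calls, 2607 had an adjusted p-value under 0.01 (1026 higher, 1581 lower) and 2271 a log2 fold change of at least 0.5 in size (456 of them higher). The rises numbered 1231 with total-count scaling, 2848 with only the 6 libraries compared and 3084 after removal of length and GC trends, against 1879. Leaving out 1 library gave 2961 to 6182 calls, 1162 to 2797 rises and 1799 to 3385 falls, with the fewest without library 7 of both compounds and the most without oxamate library 4, and without library 8 of both compounds there were 1208 rises. With the other scaling, filters and DESeq2, 3900 to 5111 genes were called. Of the called genes, 3886 were also called with total-count scaling, 3686 with DESeq2 and 3928 after removal of length and GC trends. The cause of these shifts was not tested.

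Of the 128 called genes named in the text by the rule, 114 were called in every one of 17 fits and none changed direction. Among genes that were not called, the log2 fold change of D2hgdh (0.014, between -0.208 and 0.014 without 1 library) and the log2 fold change of Kdm4a (0.001, between -0.124 and 0.001) changed sign without vehicle library 3 and that of Ldha (0.021) after removal of length and GC trends. Ldhc was called with total-count scaling (-0.23), with only the 6 libraries compared (-0.16) and without oxamate library 4 (-0.17). No paired analysis was possible because the replicate numbers of the groups do not overlap. Counting error limits genes with few counts, whose fitted fold changes are not quoted.

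Several counts of list members not given beside the lists also moved by more than 1.5 times. With total-count scaling the rises numbered 1 in lactate and 2HG metabolism (4 in the report), 0 in the TCA cycle list (2), 1 in heat shock (3), 3 in DNA and RNA methylation (5), 2 in fertilization (5), 3 in testis kinases and storage (5) and 2 in the piRNA pathway (4), and the falls 5 in meiosis (3) and 7 in the proteasome (4). After removal of length and GC trends 5 sterol genes (3) and 6 meiosis genes (3) rose, and 3 genes of the TCA cycle list (5), 5 JmjC genes (3) and 1 of the centromere list (2) fell. With DESeq2 5 heat shock genes (3) and 2 of the p53 response (4) rose, and 2 remodellers (5) and 2 proteasome genes (4) fell. With only the 6 libraries compared the rises were 7 in heat shock (3), 8 in DNA and RNA methylation (5), 8 in fertilization (5), 33 in the tail (12), 11 in the manchette (6) and 12 in testis kinases and storage (5), and 24 ribosome genes fell (11).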

Other observations

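Gene classes differed in their balance of calls among genes with a mean of at least 100, in a comparison made after the values had been seen. Of 1203 long noncoding RNA genes 50 rose and 299 fell, with a median log2 fold change of -0.11, while of 9168 protein-coding genes 1632 rose and 1058 fell. With total-count scaling 34 long noncoding genes rose and 387 fell, and with DESeq2 53 rose and 241 fell, but after removal of length and GC trends 243 rose and 188 fell, so that the direction did not hold under that fit. Of 234 protein-coding genes of the X chromosome 15 rose and 38 fell, and of 8907 autosomal ones 1616 rose and 1018 fell. For the X chromosome too the balance turned after removal of the trends, to 48 rises and 26 falls, and with total-count scaling it was 7 and 51. The part of transcript length in these differences was not tested.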
